A study of Mus with 21 samples.

Results

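The genes described here encode the protein components of the cytoplasmic ribosome. They were taken as all rows of the deposited count table whose symbol is Rpl or Rps, with an optional p for the acidic stalk proteins, followed by a number and an optional a or x. This rule found 75 genes among the 55335 in the table, 46 of the large subunit and 29 of the small subunit, on 19 chromosomes. Tissue-restricted paralogs and pseudogenes fall outside the rule and are given separately. The study asked whether a lower dose of *Wapl*, which encodes the factor that releases the cohesin ring from chromosomes, alters the effects of a lower dose of *Nipbl*, which encodes the factor that loads it. The RNA libraries described here came from the whole brains of 21 female mouse embryos at E17.5, late in gestation. The study sequenced 1 further *Nipbl*+/- brain and left it out because it gave too few reads. The groups were 5 *WT* brains (Wapl +/+, Nipbl +/+), 3 *Nipbl*+/- brains, 7 *Wapl*Δ/+ brains and 6 double heterozygotes that carry both mutant alleles. The *Nipbl*- allele arose from a floxed allele by Cre recombination, and the study's methods name a Stra8-iCre line, which is active in the male germ line. The *Wapl*Δ allele lacks the promoter and the first exons after deletion by an E2a-Cre line, and descends from a floxed allele made in R1 embryonic stem cells and backcrossed to C57BL/6J. Both deletions are therefore in every cell of the embryo rather than in 1 cell type.

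Each ribosome holds a single copy of nearly every one of these proteins, bound to ribosomal RNA, and the genes are transcribed strongly in all cells. Their mRNAs mostly begin with a tract of pyrimidines that couples their translation to mTOR signalling. Loss of 1 copy of certain members, *RPS19* among them, causes Diamond-Blackfan anaemia in people, and free RPL5 and RPL11 bind MDM2 and so raise p53.

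The libraries held between 25682566 and 35818767 counts (median 31830396), and a ribosomal protein gene had between 2473 and 28347 of them (median 7271). Counts were not corrected for transcript length, so that the order of genes by count is not an order of mRNA levels. As a check of the labels, *Nipbl* stood at 54.3% ± 4.52 (SD, n = 3) of the *WT* mean in *Nipbl*+/- brains and at 54.8% ± 1.79 (n = 6) in double heterozygotes, and *Wapl* at 46.7% ± 4.51 (n = 7) in *Wapl*Δ/+ brains and 49.3% ± 1.90 (n = 6) in double heterozygotes. The libraries also fall into 2 sets by *mt-Nd3*, a mitochondrially encoded gene, with at most 6 counts in 12 libraries and at least 52 in the other 9. The set with low counts held 3 of 5 *WT*, 3 of 3 *Nipbl*+/-, 2 of 7 *Wapl*Δ/+ and 4 of 6 double-heterozygote libraries, so *Nipbl*+/- brains can be compared with *WT* within the low set only. In bulk tissue, fewer cells of a type and less RNA per cell cannot be told apart either.

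In *WT* brains the ribosomal protein genes were expressed at nearly the same level in each embryo. Together they took 1.82% ± 0.0330 (SD, n = 5) of all counts, with values of 1.79%, 1.86%, 1.79%, 1.85% and 1.82% in replicates 1 to 5. The *WT* libraries thus differed little from each other. The coefficient of variation of a single gene over the 5 *WT* brains had a median of 2.41%, from 0.727% for *Rpl14* to 5.77% for *Rps14*, apart from *Rpl29* at 29.7%, which is described separately. The largest mean counts over all brains, in normalised read counts, belonged to *Rplp0* (22002), which anchors the stalk of the large subunit, and to *Rpl4* (20646), *Rpl3* (14718), *Rpl13a* (14284) and *Rpl7* (12946). The smallest belonged to *Rpl27* (3217), *Rpl35a* (3242), *Rpl38* (3356), *Rpl36a* (3426) and *Rpl36* (3529). All 75 genes passed the filter on low counts.

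The mutant brains varied more, and embryos of 1 genotype differed widely from each other. The ribosomal protein share of all counts was 2.07%, 1.85% and 1.82% in the 3 *Nipbl*+/- brains (1.92% ± 0.138). In *Wapl*Δ/+ brains it ran from 1.82% through a median of 1.89% to 2.08% (1.90% ± 0.0888, n = 7). In double heterozygotes it ran from 1.78% through a median of 1.93% to 2.36% (1.97% ± 0.210, n = 6). All 3 mutant groups therefore overlapped the *WT* range, and each held 1 brain that stood well above it. After normalisation the summed count of the 75 genes reached 113% of the *WT* mean in *Nipbl*+/- replicate 1, 114% in *Wapl*Δ/+ replicate 1 and 127% in double-heterozygote replicate 5, while the *WT* brains spanned 97.4% to 102%.

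**Figure D1:**
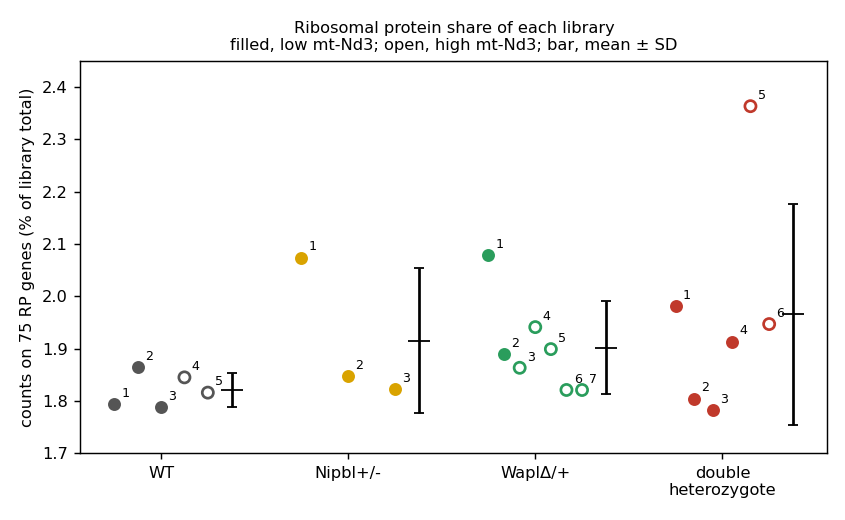
Share of each library's counts that fell on the 75 ribosomal protein genes (vertical axis, % of the library total, which does not start at 0), by genotype. Each point is 1 brain with its replicate number, filled for low and open for high *mt-Nd3* counts, and the bars give the mean ± SD. *WT* brains lie between 1.79% and 1.86%, and the highest brain is double-heterozygote replicate 5 at 2.36%.

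In these 3 brains nearly the whole set was raised at once. Of the 75 genes, 74 lay above the *WT* range in *Nipbl*+/- replicate 1, 73 in *Wapl*Δ/+ replicate 1 and 75 in double-heterozygote replicate 5. Over all tested genes the same was true of 24.8%, 25.5% and 18.7% in those libraries. The median log2 ratio of the 75 genes to the *WT* mean was 0.18 in *Nipbl*+/- replicate 1, 0.18 in *Wapl*Δ/+ replicate 1 and 0.33 in double-heterozygote replicate 5. For 70 of the 75 genes the latter brain had the highest value of all 21. Double-heterozygote replicates 1 and 6 and *Wapl*Δ/+ replicate 4 were raised less, with 69, 64 and 61 genes above the *WT* range and median log2 ratios of 0.10, 0.09 and 0.08. Of all tested genes, 19.5%, 24.96% and 19.7% lay above the *WT* range in these libraries, in the same order. At the other end, double-heterozygote replicate 3 had 42 genes below the *WT* range and 1 above it, and it was the lowest of the 21 brains for 35 genes. Double-heterozygote replicate 2 and *Wapl*Δ/+ replicate 7 followed with 26 and 23 genes below the *WT* range. The share of all tested genes below the *WT* range was not computed for single brains, so these counts have no background beside them. The brain that was highest for the most genes and the brain that was lowest for the most genes were of the same genotype.

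**Figure D2:**
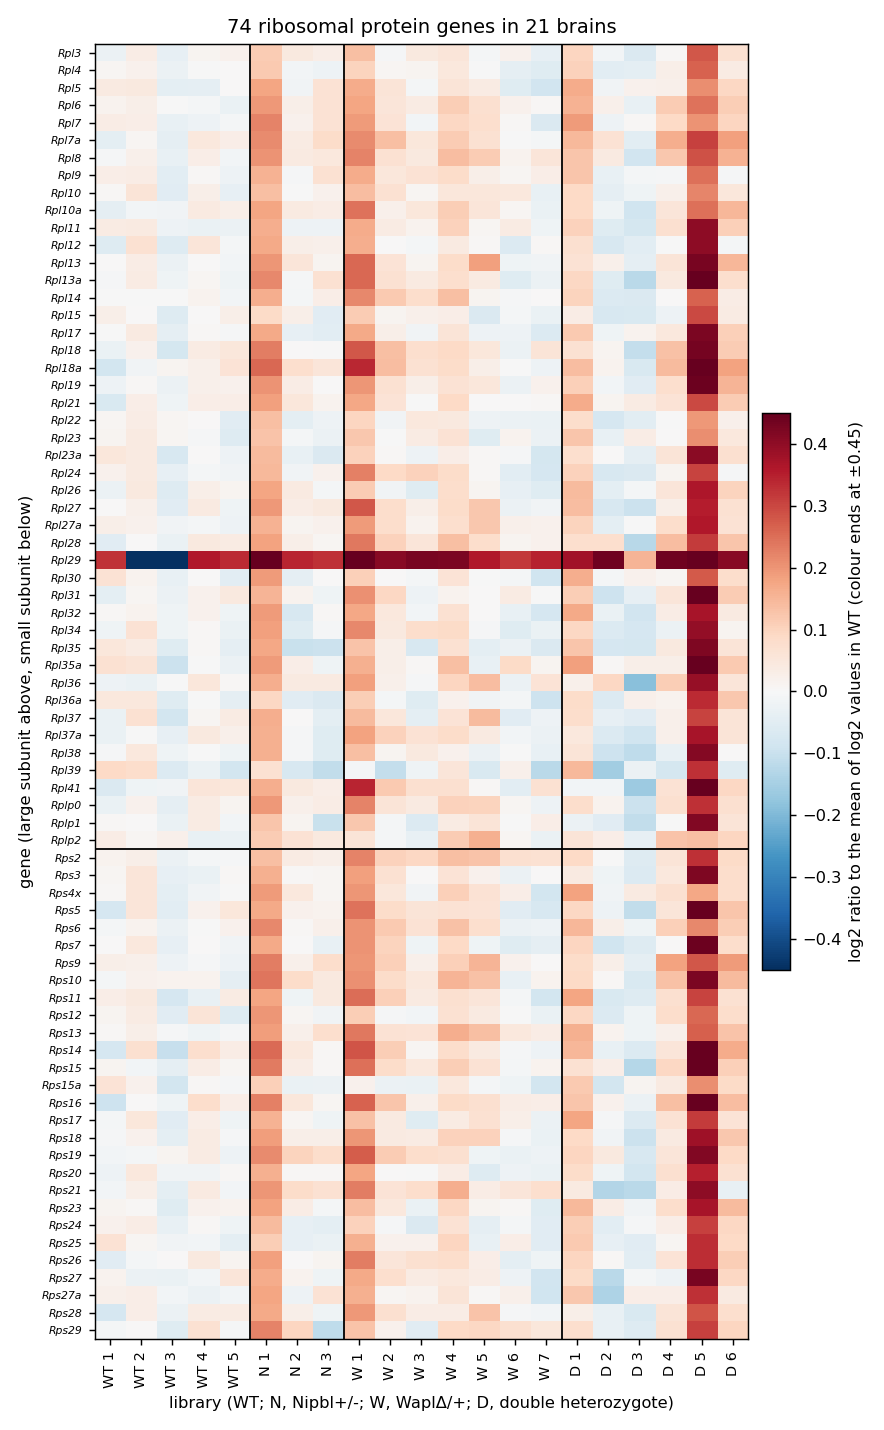
Log2 ratio of 74 of the 75 ribosomal protein genes (rows, large subunit above the line and small subunit below) to its mean of log2 values in *WT*, in each of the 21 brains (columns, grouped by genotype). Colour runs from blue (lower) to red (higher) and ends at ±0.45. Whole columns are red for *Nipbl*+/- replicate 1, *Wapl*Δ/+ replicate 1 and double-heterozygote replicate 5, and the row of *Rpl29* stands apart because it is low in *WT* replicates 2 and 3.

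The subunits kept their ratio while the level moved. The summed normalised count of the large subunit genes was 1.61 times that of the small subunit genes in *WT* brains (SD 0.00643, n = 5), and it lay between 1.599 and 1.624 in every one of the 21 brains. In double-heterozygote replicate 5 the median log2 ratio to *WT* was 0.34 for the large and 0.33 for the small subunit. Over the 21 brains the SD of a gene's log2 ratio had a median of 0.0979, and after the median of the 75 genes in the same brain was subtracted it had a median of 0.0396. Apart from *Rpl29* (0.260), the largest remaining SD was that of *Rpl41* (0.0802), which encodes one of the shortest known eukaryotic proteins.

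The comparison of *Nipbl*+/- with *WT* brains asks what a lower dose of the cohesin loader does to these genes. Of the 75, 3 rose and 0 fell at an adjusted p below 0.10 (edgeR quasi-likelihood test with Benjamini-Hochberg adjustment over the 30552 genes tested). Over all tested genes 11.2% were called in either direction and 4.25% were called higher, so 3 of 75 is near the background. At an unadjusted p below 0.05 the members higher numbered 12, against 8.47% of all tested genes, and none of them was lower. The fold change was above 0 for 72 of the 75, against 48.3% of all tested genes, with a median log2 fold change of 0.06 against -0.01.

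The genes called all belong to the small subunit. *Rps19*, needed to mature the 18S ribosomal RNA, had 6429, 6452, 6542, 6652 and 6384 normalised counts in *WT* and 7527, 6960.2 and 6850.5 in *Nipbl*+/- brains. Every *Nipbl*+/- value lay above every *WT* value, with a log2 fold change of 0.13 (SE 0.0374, adjusted p = 0.0463, edgeR quasi-likelihood test, Benjamini-Hochberg). *Rps10* had 5648, 5760.4, 5742, 5744 and 5529.6 in *WT* and 6724, 6021 and 5865 in *Nipbl*+/- brains, again without overlap, and rose by 0.12 on the log2 scale (SE 0.0417, adjusted p = 0.0934). *Rps21* had 3370.05, 3463, 3291, 3493 and 3368 in *WT* and 3897, 3598 and 3562 in *Nipbl*+/- brains, and rose by 0.11 (SE 0.0389, adjusted p = 0.0944). In each of the 3 genes *Nipbl*+/- replicate 1 was the highest of the 8 brains compared. The groups did not overlap for 7 members (*Rpl6*, *Rpl8*, *Rplp2*, *Rps2*, *Rps10*, *Rps19*, *Rps21*), all higher in the mutant, against 6.54% of all tested genes, and 0 members lay wholly below *WT*, against 6.9%.

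These calls rested on single brains. Without *Nipbl*+/- replicate 1, 0 of 75 genes were called by edgeR (with 1 member up and 1 down at an unadjusted p under 0.05), 45 had a fold change above 0 and the median log2 fold change was 0.01. Without *Nipbl*+/- replicate 2 or 3 the calls were 14 and 8, and without any 1 of the *WT* brains they were 0 or 1 (0 without replicate 5 and 1 without replicate 1, 2, 3 or 4, in each case *Rps19*). *Rps19* kept its call in 6 of the 8 fits that leave out 1 brain, and *Rps10* and *Rps21* in 2 of 8 each. All 3 *Nipbl*+/- libraries are of the low *mt-Nd3* set, and among the libraries of that set alone the only call was *Rpl29*. The *WT* brains of that set are replicates 1, 2 and 3, and replicates 2 and 3 have the low *Rpl29* counts described below.

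The comparison of *Wapl*Δ/+ with *WT* brains asks the same of the release factor. Of the 75 genes, *Rps2* alone rose and 0 fell. *Rps2*, which lines the mRNA entry channel, had 10414, 10491, 10113, 10249.5 and 10275 normalised counts in *WT*, and 10812 as the lowest, 11077 as the median and 12026 as the highest value in *Wapl*Δ/+ brains. The 7 mutant brains all lay above the 5 *WT* brains, and the log2 fold change was 0.12 (SE 0.0303, adjusted p = 0.0606, edgeR quasi-likelihood test, Benjamini-Hochberg). It kept its call in 5 of the 12 fits that leave out 1 brain, those without *Wapl*Δ/+ replicate 1, 2, 3, 6 or 7, and lost it without *Wapl*Δ/+ replicate 4 or 5 or any 1 of the *WT* brains. The only other member without overlap was *Rps13*, a small-subunit protein, with 4348 to 4486 in *WT* and 4509.6 to 5190.4 in *Wapl*Δ/+ brains and a log2 fold change of 0.11 (SE 0.0351) that missed the threshold (adjusted p = 0.132, edgeR).

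Against these counts, 2.22% of all tested genes were called in either direction in *Wapl*Δ/+ brains and 0.769% were called higher. The first share was 0.0295% without *WT* replicate 2, 0.0426% without *WT* replicate 1, 0.324% without *WT* replicate 5, 0.805% without *WT* replicate 4, 0.789% without *Wapl*Δ/+ replicate 4, 0.864% without *Wapl*Δ/+ replicate 5, 1.45% without *Wapl*Δ/+ replicate 1 and 5.02% without *Wapl*Δ/+ replicate 2. Without overlap above *WT* were 2 of the 75 members and 0.733% of all tested genes, and below *WT* 0 members and 0.471% of all. At an unadjusted p below 0.05, 17 members were higher and none was lower, against 7.52% of all tested genes higher. The fold change was above 0 for 72 of 75 members, against 49.1% of all, and the median log2 fold change was 0.06. *Wapl*Δ/+ replicate 1 weighed on the size of the change: without it the median was 0.03 and 62 members were above 0.

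In double heterozygotes the fold change was above 0 for every one of the 75 genes, and 0 of them passed the test. The median log2 fold change over *WT* was 0.10, from 0.04 for *Rpl22* to 0.36 for *Rpl29*, while 50.2% of all tested genes were above 0. By edgeR 0 of 75 were called at an adjusted p below 0.10, against 3.28% of all tested genes in either direction and 0.812% called higher. At an unadjusted p below 0.05, 17 members were higher, against 5.88% of all, and DESeq2 called 1 member, *Rpl7a*. The double-heterozygote and *WT* ranges overlapped for all 75 genes, whereas 0.468% of all tested genes lay wholly above and 2.29% wholly below *WT*.

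The 3 members with the smallest p were *Rpl7a*, *Rps9* and *Rpl29*. *Rpl7a*, a large-subunit protein, had 11779.5, 12203, 11800.2, 12551 and 12384 normalised counts in *WT* and 11759 as the lowest, 13514 as the median and 15022 as the highest value in double heterozygotes (log2 fold change 0.15, SE 0.0521, adjusted p = 0.173, edgeR). *Rps9*, a small-subunit protein that takes part in decoding accuracy, had 10839.9, 10804, 10468, 10591 and 10470.3 in *WT* and 10340.5, 11652 and 12908 as lowest, median and highest value in double heterozygotes (log2 fold change 0.13, SE 0.0503, adjusted p = 0.218, edgeR). In both, 1 brain at least lay below the whole *WT* range. Without double-heterozygote replicate 5, the median log2 fold change of the 75 genes was 0.04 and 68 were above 0. Without double-heterozygote replicate 3 the calls by edgeR rose from 0 to 6 (*Rpl6*, *Rpl7a*, *Rpl8*, *Rpl28*, *Rps6* and *Rps9*, all higher). Among the low *mt-Nd3* libraries alone, which leave out double-heterozygote replicates 5 and 6, the median was 0.03, 65 genes were above 0 and *Rpl29* was the only call. These libraries include *WT* replicates 2 and 3, whose *Rpl29* counts are low.

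**Figure D3:**
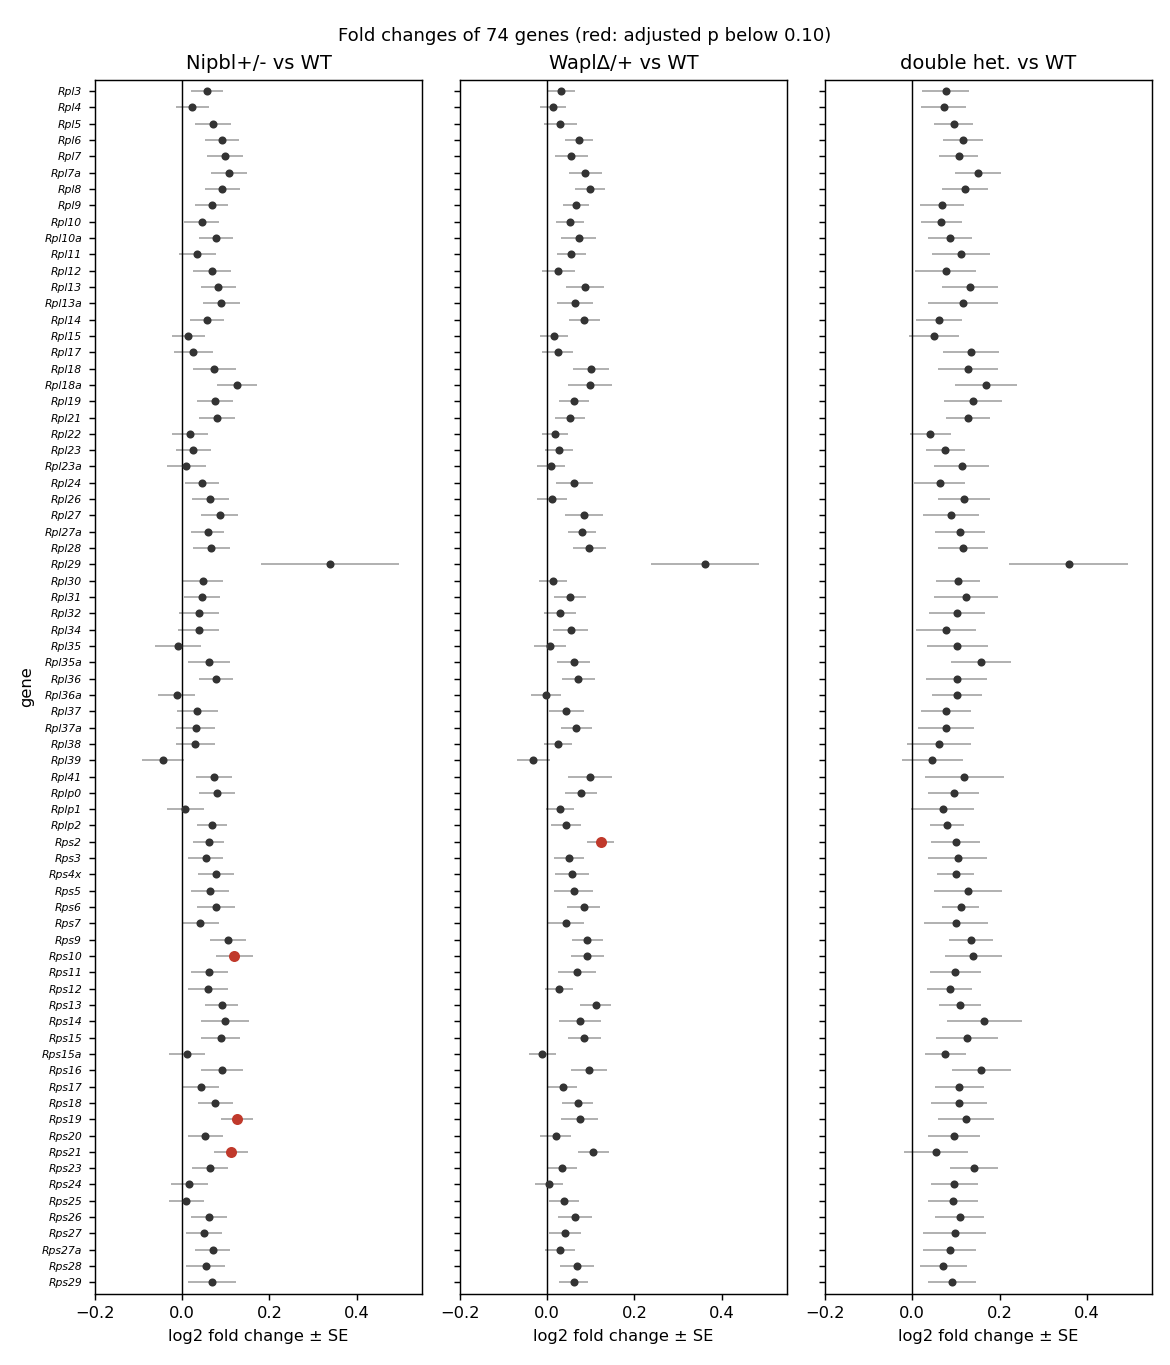
Log2 fold change over *WT* with its standard error (horizontal axis) for 74 of the 75 genes (vertical axis), in *Nipbl*+/-, *Wapl*Δ/+ and double-heterozygote brains, with genes past an adjusted p of 0.10 in red. Most points lie a little to the right of 0, with medians over the 75 genes of 0.06, 0.06 and 0.10, and 3, 1 and 0 genes pass. The 3 panels share the same *WT* brains, so a shift of those would move all panels together.

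Between mutant genotypes no ribosomal protein gene was called. Double heterozygotes against *Nipbl*+/- brains gave 0 calls among the 75 (0.00655% of all tested genes), 0 members at an unadjusted p below 0.05 and 0 calls by DESeq2, with 67 members above 0 (51.4% of all) and a median log2 fold change of 0.03. The 3 smallest p belonged to *Rpl36a* (0.10, SE 0.0772), *Rpl17* (0.10, SE 0.0886) and *Rpl23a* (0.09, SE 0.0870), with adjusted p between 0.971 and 0.972 by edgeR. Double heterozygotes against *Wapl*Δ/+ brains gave 0 calls (1.02% of all), 0 members at an unadjusted p below 0.05 and 0 calls by DESeq2, with 69 members above 0 (52.1% of all) and a median of 0.05. The smallest p there were those of *Rps15a* (0.09, SE 0.0421), *Rps23* (0.11, SE 0.0518) and *Rpl36a* (0.10, SE 0.0517), with adjusted p between 0.506 and 0.513 by edgeR. *Nipbl*+/- against *Wapl*Δ/+ brains gave 0 calls (1.16% of all), 0 members at an unadjusted p below 0.05 and 0 calls by DESeq2, with 58 members above 0 (50.9% of all) and a median of 0.01. The smallest p were those of *Rpl26* (0.06, SE 0.0483), *Rps2* (-0.05, SE 0.0415) and *Rpl12* (0.05, SE 0.0479), with adjusted p between 0.718 and 0.780 by edgeR. The sign of these medians hung on the libraries compared. Among the low *mt-Nd3* libraries alone, which hold 2 *Wapl*Δ/+ brains (replicates 1 and 2), the median of double heterozygotes against *Wapl*Δ/+ brains was -0.10, with 3 members above 0 and 19 lower at an unadjusted p below 0.05. In the same libraries it was -0.05 against *Nipbl*+/- brains, with 6 members above 0 and 1 lower at that threshold, and -0.05 for *Nipbl*+/- against *Wapl*Δ/+ brains, with 7 above 0. No ribosomal protein gene was called in these fits. Without double-heterozygote replicate 5 the median was -0.03 against *Nipbl*+/- and -0.01 against *Wapl*Δ/+ brains, and without *Nipbl*+/- replicate 1 the median of *Nipbl*+/- against *Wapl*Δ/+ brains was -0.05.

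The interaction term asks whether both alleles together moved a gene by more or less than the sum of the separate log2 changes. By edgeR 0 of 75 members and 0% of all tested genes were called, and by DESeq2 0 members. The term was above 0 for 11 members, against 46.1% of all tested genes, with a median of -0.05 against -0.02. At an unadjusted p below 0.05 the only member was *Rpl29* (-0.38, SE 0.181, adjusted p = 0.350), followed by *Rps21* (-0.20, SE 0.101, adjusted p = 0.379) and *Rps13* (-0.13, SE 0.0746, adjusted p = 0.460). With DESeq2 22 members were above 0 and the median was -0.03. The median turned to 0.01 without *Nipbl*+/- replicate 1. Among the low *mt-Nd3* libraries alone it was -0.17, with 2 members above 0, 0 called and 36 lower at an unadjusted p below 0.05.

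The stalk proteins recruit the elongation factors, and none of their genes was called. *Rplp0* had 20650.6, 21372, 20497, 21648 and 21253.5 normalised counts in *WT* and 24139, 21434 and 21586 in *Nipbl*+/- brains. In the *Wapl*Δ/+ group it ran from 20737 through 21924 to 24618, and in double heterozygotes from 19701 through 22161 to 26483. Its log2 fold changes of 0.08, 0.08 and 0.09 over *WT* (adjusted p from 0.309 to 0.517, edgeR) did not exceed the spread between brains. *Rplp1* had log2 fold changes of 0.01, 0.03 and 0.07, and *Rplp2* of 0.07, 0.04 and 0.08. *Rplp2* was the least raised of the 75 genes in double-heterozygote replicate 5, at a log2 ratio of 0.14 to *WT* where the median member was at 0.33, and the highest double-heterozygote value was 6516 beside 5789 to 6066 in *WT*.

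*Rpl5* and *Rpl11*, which join 5S ribosomal RNA in the particle that binds MDM2, had log2 fold changes of 0.07 and 0.04 in *Nipbl*+/-, 0.03 and 0.06 in *Wapl*Δ/+ and 0.10 and 0.11 in double-heterozygote brains, none of which was called. *Rpl11* had 8103, 8120.4, 7785, 7737 and 7764 normalised counts in *WT*, and in double heterozygotes 7477, 8397 and 10441 as lowest, median and highest value. The last is replicate 5. *Rpl5* ran from 8898 to 9456 in *WT* and from 9084 to 10615 in double heterozygotes.

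Among other proteins of known roles, *Rps6*, the target of the S6 kinases, had 4722, 4804, 4656, 4737 and 4815 normalised counts in *WT* and 5513, 4764 and 4820 in *Nipbl*+/- brains. Among *Wapl*Δ/+ brains it ran from 4664 through 5002 to 5458 and in double heterozygotes from 4688 through 5124 to 5509. The groups overlapped, and its log2 fold changes of 0.08, 0.08 and 0.11 were not called (adjusted p 0.342, 0.276 and 0.233, edgeR). *Rps27a*, which is made as a fusion with ubiquitin, had log2 fold changes of 0.07, 0.03 and 0.09. *Rpl24*, a bridge between the subunits, had 0.05, 0.06 and 0.06. *Rpl38*, known for its part in patterning of the axial skeleton, had 0.03, 0.03 and 0.06. *Rpl41* had 0.07, 0.10 and 0.12, and its double-heterozygote values spanned 7602 to 12576 beside 8126 to 8830.2 in *WT*. None of these 4 genes was called in a comparison with *WT*.

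The 4 members on the X chromosome were *Rpl10*, *Rps4x*, *Rpl36a* and *Rpl39*. *Rpl39*, a short protein of the exit tunnel, had 4194, 4165, 3781, 3864 and 3726 normalised counts in *WT* and 4136, 3749.8 and 3646 in *Nipbl*+/- brains. Its log2 fold changes were -0.04 in *Nipbl*+/-, -0.03 in *Wapl*Δ/+ and 0.05 in double-heterozygote brains, and only 2 of the 16 mutant brains lay above its *WT* range, the fewest of any member. *Rpl36a* had -0.01, -0.0027 and 0.10, and its sign against *WT* turned with small changes of the fit in *Nipbl*+/- and *Wapl*Δ/+ brains. *Rpl10*, a late-joining protein near the peptidyl transferase centre, had 0.04, 0.05 and 0.07, and *Rps4x* had 0.08, 0.06 and 0.10. None was called.

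*Rpl29* departed from the rest of the set. It lies on chromosome 9 (GRCm38, chr9:106428889-106431568) and encodes a large-subunit protein. It had 5272, 2991, 2917, 5402 and 5308 normalised counts in *WT* replicates 1 to 5, and 6050, 5338 and 5285 in *Nipbl*+/- brains. In *Wapl*Δ/+ brains it ran from 5245 through 5587 to 6380 and in double heterozygotes from 4681 through 5640 to 6301. *WT* replicates 2 and 3 thus stood at 55.4% of the mean of the other *WT* brains (2954 against 5327), below all 19 other libraries, and in no other member were both below all others. Over all tested genes this held for 124 (0.406%). On chromosome 9 it held for 14 of 1333 genes with a position (1.05%) and elsewhere for 78 of 22743 (0.343%), and *Trex1* (417 and 395 beside 537 to 736 in the others) and *Atrip* (1335 and 1374 beside 1516 to 1723) were among those on chromosome 9. Of 2 genes near *Rpl29*, *Dusp7* (chr9:106368560-106375724) had 790 and 845 in *WT* replicates 2 and 3, just below all others (851 to 1088). *Acy1* (chr9:106432981-106438236) had 380 and 450 there, inside and above the range of the others (331 to 444). *Trex1*, *Atrip*, *Dusp7* and *Acy1* were chosen after their values were seen.

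A pseudogene of *Rpl29* showed the reverse pattern. *Gm8210*, which RefSeq lists as a pseudogene with *Rpl29* among its synonyms (GRCm38, chr1:43189052-43189773), had 204 and 232 normalised counts in *WT* replicates 2 and 3 and at most 3 counts in each of the other 19 libraries. These counts are few beside the difference in *Rpl29*. *Rpl29-ps1*, *Rpl29-ps2* and *Rpl29-ps5* had at most 11.9 normalised counts in any library. The log2 fold change of *Rpl29* over *WT* was 0.34, 0.36 and 0.36 in *Nipbl*+/-, *Wapl*Δ/+ and double-heterozygote brains (SE 0.158, 0.124 and 0.137), the largest of the 75 in each comparison, and it was not called in any (adjusted p 0.238, 0.162 and 0.231, edgeR). With *WT* replicates 2 and 3 left out together, an alternative chosen after seeing the data, it was 0.06, 0.08 and 0.07. How reads that match several places were treated in the counting is not given in the sources used here, so counts of members that share sequence with pseudogenes are less certain.

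**Figure D4:**
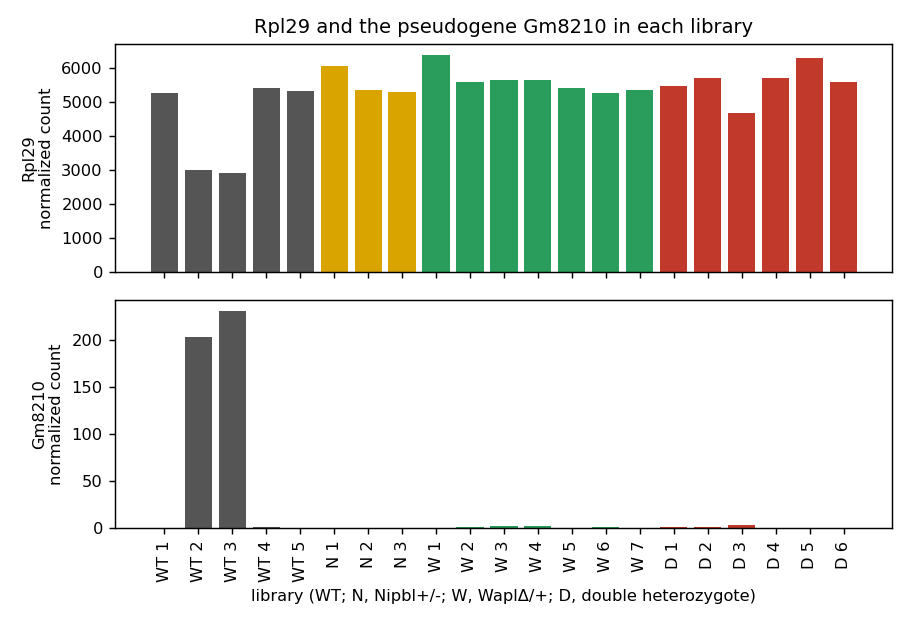
Normalised read counts of *Rpl29* (upper panel) and of the pseudogene *Gm8210* (lower panel) in each of the 21 brains, 1 bar a library, coloured by genotype. *WT* replicates 2 and 3 have 2991 and 2917 counts of *Rpl29*, below every other library, and 204 and 232 of *Gm8210*, which is nearly absent from the others.

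Related genes outside the rule gave no calls against *WT* by edgeR. Of 9 paralogs with restricted or minor expression, 8 were tested and 0 called by edgeR, with 3, 2 and 1 at an unadjusted p below 0.05 and 0, 1 and 1 called by DESeq2. Of 295 annotated ribosomal protein pseudogenes, 137 were tested and 0 called by edgeR, with 8, 8 and 7 at an unadjusted p below 0.05 and 0 by DESeq2. Their summed normalised count was between 1383 and 1807 in every library, small beside the members.

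The neighbouring steps of ribosome production gave few calls. Of 45 tested factors of ribosome biogenesis, such as fibrillarin and nucleolin, 0 were called against *WT* in any mutant group by edgeR, with 4, 8 and 7 at an unadjusted p below 0.05 in *Nipbl*+/-, *Wapl*Δ/+ and double-heterozygote brains, 2, 2 and 3 calls by DESeq2 and median log2 fold changes of 0.02, 0.01 and 0.02. In double-heterozygote replicate 5 their median log2 ratio to *WT* was -0.01. Of 15 RNA polymerase I genes, 2, 1 and 0 were called, beside 11.2%, 2.22% and 3.28% of all tested genes. Among them *Polr1c* (0.16, SE 0.0548, adjusted p = 0.0910, edgeR) and *Ubtf* (0.12, SE 0.0338, adjusted p = 0.0349) rose in *Nipbl*+/- brains, and *Polr1c* rose in *Wapl*Δ/+ brains (0.15, SE 0.0404, adjusted p = 0.0869). In double heterozygotes 0 were called by edgeR, with 2 at an unadjusted p below 0.05 and 2 by DESeq2. Of 41 initiation and elongation factors, *Eif1ax*, which helps select the start codon, fell by 0.13 in *Nipbl*+/- brains (adjusted p = 0.0659, edgeR), and 0 were called in the other 2 groups (8 and 3 at an unadjusted p below 0.05, 1 and 2 by DESeq2).

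Of 22 tested genes that regulate ribosome production, 4, 2 and 1 were called in *Nipbl*+/-, *Wapl*Δ/+ and double-heterozygote brains, beside 11.2%, 2.22% and 3.28% of all tested genes. Among them *Eif4ebp2*, a repressor of cap-dependent translation, and *Maf1*, a repressor of RNA polymerase III, rose in *Nipbl*+/- brains by 0.18 and 0.17 on the log2 scale (adjusted p 0.0140 and 0.00909, edgeR). *Myc*, which activates ribosomal genes, and *Larp4*, which binds poly(A) tails, fell there by 0.30 and 0.26 (adjusted p 0.0200 and 0.00595). *Myc* also fell by 0.27 in double heterozygotes (adjusted p = 0.0207), and in *Wapl*Δ/+ brains *Eif4ebp2* rose by 0.16 and *Mtor* fell by 0.15 (both adjusted p = 0.0944). Of 20 p53 target genes, 5, 0 and 2 were called beside the same shares of all genes. Among them *Btg2* and *Mdm2* rose and *Ccng1*, *Plk2* and *Rrm2b* fell in *Nipbl*+/- brains, *Btg2* rose and *Plk2* fell in double heterozygotes, and 0 were called in *Wapl*Δ/+ brains by edgeR (5 at an unadjusted p below 0.05, 2 by DESeq2). The list therefore had calls in both directions, with medians of -0.04, -0.01 and 0.05 in *Nipbl*+/-, double-heterozygote and *Wapl*Δ/+ brains.

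Nuclear genes for mitochondrial proteins gave few calls. Over all tested genes 11.2%, 2.22% and 3.28% were called in either direction in *Nipbl*+/-, *Wapl*Δ/+ and double-heterozygote brains. Those with a fold change above 0 were 48.3%, 49.1% and 50.2% of all. Of 77 mitochondrial ribosomal protein genes, 49, 65 and 61 had a fold change above 0 in *Nipbl*+/-, *Wapl*Δ/+ and double-heterozygote brains (medians 0.02, 0.04 and 0.04). Among them *Mrps34* rose and *Mrpl19* fell in *Nipbl*+/- brains, *Mrps24* rose in *Wapl*Δ/+ and *Mrpl24* in double-heterozygote brains. At an unadjusted p below 0.05, 5, 16 and 7 of the 77 were higher and 1, 0 and 0 lower. The share of all tested genes higher at that threshold was 8.47%, 7.52% and 5.88%. Of 95 tested nuclear genes of oxidative phosphorylation, 35, 71 and 74 were above 0 (medians -0.02, 0.04 and 0.03). Among them *Atp5md* fell in *Nipbl*+/- brains and 0 were called in the other 2 groups by edgeR (15 and 4 at an unadjusted p below 0.05, 7 and 1 by DESeq2, all higher). Of the 13 mitochondrially encoded proteins, 5 fell in *Nipbl*+/- brains, among them *mt-Nd3*, which has few counts in all of those libraries, and 0 were called in the other 2 groups (0 at an unadjusted p below 0.05, 0 by DESeq2). In double-heterozygote replicate 5 the median log2 ratio to *WT* was 0.22 for the oxidative phosphorylation genes, 0.15 for the mitochondrial ribosomal proteins, 0.16 for the mitochondrially encoded genes and 0.08 for the translation factors. The corresponding medians were 0.04, 0.09, -0.11 and 0.07 in *Nipbl*+/- replicate 1, and 0.12, 0.11, 0.03 and 0.11 in *Wapl*Δ/+ replicate 1. The brains with the highest ribosomal protein level thus did not share 1 profile over these lists.

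**Figure D5:**
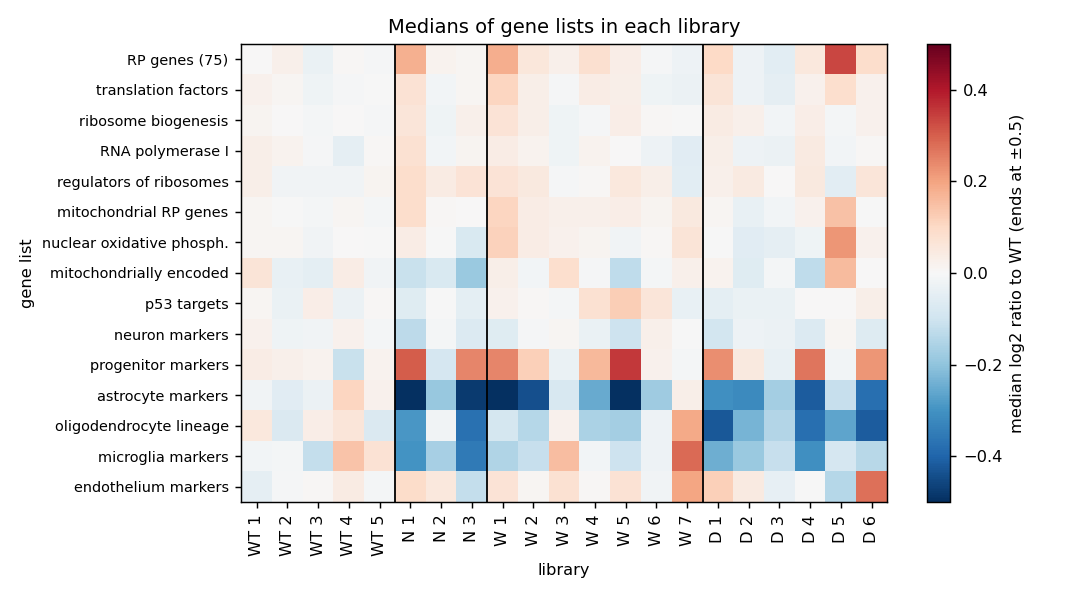
Median log2 ratio to *WT* of 15 gene lists (rows) in each of the 21 brains (columns, WT; N, *Nipbl*+/-; W, *Wapl*Δ/+; D, double heterozygote), with colour ending at ±0.5. Ribosomal protein genes are red in N 1, W 1 and D 5, whereas progenitor markers are red in N 1 and W 1 and near 0 in D 5.

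Markers of cell types moved with genotype and in part with single brains. The summed normalised count of 8 neuron markers was 194140 to 203801 in *WT* and 188128 to 195134 in *Nipbl*+/- brains. It was 189009 to 197543 in *Wapl*Δ/+ and 189429 to 209415 in double-heterozygote brains. By edgeR 2, 0 and 1 of these markers fell in *Nipbl*+/-, *Wapl*Δ/+ and double-heterozygote brains, and none rose. DESeq2 called both directions in the single heterozygotes, with 1 up and 3 down in *Nipbl*+/- and 1 up and 1 down in *Wapl*Δ/+ brains. With an unadjusted edgeR p under 0.05 there were 1 up and 4 down in *Nipbl*+/- brains, and 1 of each in *Wapl*Δ/+ brains. In double heterozygotes none was up, with 1 down by DESeq2 and 2 down by that unadjusted p. Of 8 progenitor markers, *Eomes*, *Nes* and *Sox2* rose in *Nipbl*+/- brains and 0 were called in the other 2 groups by edgeR (5 and 4 at an unadjusted p below 0.05, 2 and 2 by DESeq2). Their sum was 19167 to 20482 in *WT*, 18339 to 24822 in *Nipbl*+/-, 19947 to 25840 in *Wapl*Δ/+ and 18657 to 24423 in double-heterozygote brains. Beside the raised ribosomal protein level, the median log2 ratio of the progenitor markers was 0.30 in *Nipbl*+/- replicate 1 and 0.24 in *Wapl*Δ/+ replicate 1, but -0.02 in double-heterozygote replicate 5, and it was 0.35 in *Wapl*Δ/+ replicate 5, where the ribosomal protein genes were at 0.03. The part of cell composition in the ribosomal protein level was not tested.

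Markers of glia were lower in *Nipbl*+/- and double-heterozygote brains. Of 5 markers each, astrocyte markers fell in 4, 0 and 3 cases, oligodendrocyte lineage markers in 3, 0 and 4 and microglia markers in 4, 0 and 1 in *Nipbl*+/-, *Wapl*Δ/+ and double-heterozygote brains, and none rose. Beside these and the other marker calls, 11.2%, 2.22% and 3.28% of all tested genes were called in either direction. Where edgeR made 0 calls, in *Wapl*Δ/+ brains, 4, 1 and 0 markers had an unadjusted p below 0.05 and 1, 0 and 0 were called by DESeq2. Their summed counts in *WT* were 12052 to 13046, 6276 to 6910 and 2594 to 2983. In *Nipbl*+/- brains they were 8671 to 11004, 4801 to 5904 and 2098 to 2357. In *Wapl*Δ/+ brains they were 9594 to 13020, 5601 to 7459 and 2486 to 3216, and in double heterozygotes 8997 to 11652, 4866 to 5878 and 2234 to 2585. Of 4 endothelial markers *Cdh5* rose in *Nipbl*+/- and *Wapl*Δ/+ brains, of 4 meningeal markers *Col1a1* and *Col1a2* rose in *Wapl*Δ/+ brains, and of 4 pituitary markers *Gh* was called lower in *Wapl*Δ/+ brains. The pituitary sum was 2725 in *WT* replicate 2 and at most 37.3 in the other *WT* brains, beside 31.7 to 77.1 in *Wapl*Δ/+ brains. Markers of red cells (6) and choroid plexus (3) gave 0 calls by edgeR and by DESeq2, with 1 of the red cell markers at an unadjusted p below 0.05 in *Wapl*Δ/+ brains. The part of these cell types in the ribosomal protein level was not tested either.

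Members on the chromosomes of the mutated genes were not called by edgeR in the main fit of any comparison with *WT*. *Rpl37* lies 3.17 Mb from *Nipbl* on chromosome 15 and had log2 fold changes of 0.04, 0.04 and 0.08 in *Nipbl*+/-, *Wapl*Δ/+ and double-heterozygote brains. *Rps24* lies 10.2 Mb from *Wapl* on chromosome 14 and had 0.02, 0.0042 and 0.10. *Rpl8* lies 68.4 Mb from *Nipbl* on chromosome 15 and had 0.09, 0.10 and 0.12. Some alternatives called *Rpl8*, among them DESeq2 in *Nipbl*+/- and *Wapl*Δ/+ brains and edgeR in double heterozygotes without replicate 3. These fold changes are within the range of the other members.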

How the data were processed

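Whole-brain RNA of 21 embryos was purified with oligo-dT and sequenced as 101-base paired-end libraries. The authors trimmed reads with cutadapt 2.4, aligned them with STAR 2.5.3a to GRCm38 and deposited raw read counts per gene from featureCounts (Subread 1.6.4, per the submitters' processing notes). The annotation release and the treatment of strand and of reads with several matches are not given in the sources used here.

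Library totals lay between 25682566 and 35818767 counts, and of 55335 genes 14366 had no counts. Genes with at least 10 normalised counts summed over all libraries (30552) were tested with edgeR 4.0.16 (R 4.3.3; TMM factors, quasi-likelihood F-test) on genotype, separately for each pair of groups and, for the interaction, on all libraries. P-values were adjusted by the Benjamini-Hochberg method over all tested genes, and those below 0.10 were called. Normalised counts are counts divided by TMM-scaled library size relative to the mean. The scripts were tested on simulated data. Labels do not say whether embryos came from separate litters, so p-values measure the spread between these samples. Each library was counted as a sample. Counts of replicate pairs differed by more than sampling noise (chi-square per degree of freedom from 2.85 to 32.6), which does not show whether the embryos are independent.

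All 75 members matched RefSeq GRCm38 by symbol. Genes were named by role (stalk, 5S particle, *Rps6*, *Rps19*, *Rpl10*, *Rpl24*, *Rpl38*, *Rpl41*, *Rps27a* and the X-linked members), when called, as the 3 smallest p where none was called, or as the 5 highest and 5 lowest in mean count. Genes of smallest or largest spread, *Rpl29*'s pattern over *WT* brains, *Gm8210*, *Trex1*, *Atrip*, *Dusp7*, *Acy1* and *Rps13* against *WT* were chosen after their values were seen. The members, the gene lists and the tests were chosen with earlier results of these data known. Alternatives were DESeq2 1.42.0, its size factors, TMM factors from the other genes, other filters, a threshold of 0.05, all 4 groups in 1 fit, a replicate block, the *mt-Nd3* set as a term, the low *mt-Nd3* libraries alone, and each library left out. Values of a few genes are not reported here.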

Additional observations from a re-analysis of the deposited data

Results flagged for a closer look

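Dixon's criterion at 95% was applied to 69 groups of values in *WT*, *Wapl*Δ/+ and double-heterozygote brains. They were those of the summed count and of genes named by role, called against *WT* or of smallest p there. Of these groups, 13 had a brain apart from the others, while chance gives about 1 in 20 groups. The genes share the level of their brain, so these are not independent. In double heterozygotes the brain apart was replicate 5 in all 9 cases, each time as the highest. Its summed normalised count over the 75 genes was 731490, with 620077 in the next brain. Among single genes of this brain, *Rpl11* had 10441 normalised counts (next 8510), *Rpl38* 4382 (next 3429), *Rpl41* 12576 (next 9085) and *Rplp0* 26483 (next 22244). *Rplp1* had 15315 there (next 11945), *Rps19* 8658 (next 6934), *Rps2* 12946 (next 10956) and *Rps21* 4486 (next 3491). *Wapl*Δ/+ replicate 1 stood apart with 6380 for *Rpl29* (next 5651), 10801 for *Rpl41* (next 9229) and 12026 for *Rps2* (next 11320). In *WT*, replicate 2 stood apart for *Rpl38* with 3400 (next 3293).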

How the results depend on the processing

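The direction of the median over the 75 genes against *WT* was above 0 under every alternative run, from 0.01 to 0.10 in *Nipbl*+/-, 0.03 to 0.13 in *Wapl*Δ/+ and 0.03 to 0.12 in double-heterozygote brains, and both other scalings kept it. The number of genes called was less stable, and the cause was not tested. In *Nipbl*+/- brains, where 3 were called, the number was 1 at a threshold of 0.05, 10 with DESeq2, 7 with no filter, 8 with filterByExpr, 0 with all 4 groups in 1 fit, 1 in the low *mt-Nd3* libraries, 0 without *WT* replicates 2 and 3 (added after seeing the data), and 0 to 14 with 1 library left out. In *Wapl*Δ/+ brains, where 1 was called, it was 0 at 0.05, 4 with DESeq2, 2 with no filter, 0 with all 4 groups in 1 fit, 0 in the low *mt-Nd3* libraries, 0 without *WT* replicates 2 and 3, and 0 to 2 with 1 library left out. In double heterozygotes, where 0 were called, it was 1 with DESeq2, 2 with the *mt-Nd3* term, 1 in the low *mt-Nd3* libraries and 0 to 6 with 1 library left out. The other 4 comparisons had 0 calls throughout.

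Replicate numbers gave no sign of pairing the samples. Over 25 same-numbered pairs the correlation of deviations ran from -0.0553 to 0.0838, and 7 pairs were best with their own number. The correlations were taken over all tested genes, with noisy genes of low count among them, so they cannot exclude pairing. The replicate block keeps only replicate numbers present in every group compared, so its fits also leave out libraries. Against *WT*, *Wapl*Δ/+ replicates 6 and 7 are left out. Double heterozygotes against *Nipbl*+/- brains lose double-heterozygote replicates 4, 5 and 6. With the block the calls were 1 in *Nipbl*+/-, 13 in *Wapl*Δ/+ and 1 in double-heterozygote brains, and 0 in the other comparisons. In these fits the median of double heterozygotes against *Nipbl*+/- brains was -0.06 (12 members lower at an unadjusted p below 0.05). That of *Nipbl*+/- against *Wapl*Δ/+ brains was -0.02, and that of the interaction was -0.14 (35 lower at that threshold). Leaving out double-heterozygote replicate 5 alone, with no block, gave -0.03 against *Nipbl*+/- brains. The effect of the block was not separated from that of the libraries left out.

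Over all tested genes the calls against *WT* were 3422, 677 and 1001 by edgeR and 3504, 1422 and 1480 by DESeq2. With all 4 groups in 1 fit they were 1652, 7 and 602. The interaction gave 0 genes by edgeR and 793 by DESeq2, none of them among the 75.

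Among the genes named in the text, the sign turned in 27 of 1386 refits, none of them called. Over all 75 genes, those above 0 fell from 72 to 45 without *Nipbl*+/- replicate 1. With 1 library left out, the log2 fold change in *Nipbl*+/- brains ran from -0.061 to 0.029 for *Rpl36a*, -0.027 to 0.079 for *Rpl11*, -0.0017 to 0.075 for *Rpl24*, -0.032 to 0.086 for *Rpl38*, -0.048 to 0.075 for *Rplp1* and -0.097 to 0.0050 for *Rpl39*. That of *Rpl36a* in *Wapl*Δ/+ brains ran from -0.024 to 0.0097. In double heterozygotes the range was -0.030 to 0.086 for *Rpl38*, -0.026 to 0.074 for *Rpl39*, -0.020 to 0.096 for *Rplp1* and -0.035 to 0.080 for *Rps21*. *Rpl36a* was 0.018 in *Nipbl*+/- brains with all groups in 1 fit, and in *Wapl*Δ/+ brains it was 0.0098 in that fit, 0.013 with the block, 0.015 with the *mt-Nd3* term and 0.041 in the low *mt-Nd3* libraries. In those libraries the double heterozygotes had -0.0023 for *Rpl24*, -0.042 for *Rpl38*, -0.053 for *Rpl39*, -0.030 for *Rplp1* and -0.023 for *Rps21*.

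A correction for gene length was not run, because 79.7% of tested genes had a length and 80% were needed. The *mt-Nd3* term was not run where a group lay in 1 set.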
